A study of Mus musculus with 12 samples.

Results

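RNA that the double-stranded RNA antibody K1 pulled down was compared with input RNA in small-intestinal epithelium of KAT2A/KAT2B double-knockout (DKO) mice. The comparison rests on 4 of the 12 libraries of the series: 2 K1 pulldowns and the 2 inputs of the same 2 animals, matched by the animal code and the replicate number in the labels. The DKO mice were 3-month-old females given 100 mg/kg tamoxifen on 4 consecutive days by intraperitoneal injection, and the control females of that age were injected with the ethanol and corn oil carrier alone, so genotype and tamoxifen cannot be told apart. Epithelium was released with EDTA from the proximal part of the small intestine 2 days after the last injection. The promoter that drives recombination and the cells it reaches are not given in the sources used here. K1 and input of the 2 control animals serve as the background measured in the same way.

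Double-stranded RNA forms where complementary transcripts meet or where one RNA folds back on itself. In animal cells it is bound by sensors such as MDA5, PKR and TLR3, which start the interferon response, and by editing and processing enzymes such as ADAR1 and Dicer. Mitochondrial DNA is transcribed along both strands over its whole length, which makes it a known source of such RNA, and small structured RNAs transcribed by RNA polymerase III are another. K1 is a monoclonal antibody that recognises the duplex itself and not a particular sequence. KAT2A and KAT2B are acetyltransferases of the SAGA and ATAC coactivator complexes.

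In DKO epithelium K1 recovered mitochondrial rRNA and mRNA, the RNA components of RNase P and of the signal recognition particle, Cajal body and H/ACA guide RNAs, and a set of GC-rich nuclear mRNAs. Lower in K1 than in input were most tested sense intronic transcripts, the nuclear long RNAs Xist and Neat1, most tested nuclear mRNAs of respiratory chain subunits and several defensin mRNAs. Of the 15908 genes that passed the filter on low counts, 5659 (35.6%) were called different between K1 and input at an adjusted p under 0.05 in edgeR's quasi-likelihood test. Higher in K1 were 2325 (14.6%) and lower were 3334 (21.0%), so that 41.1% of the called genes were higher. That share was 22.3% when libraries were scaled by their totals alone, 57.2% in limma voom and 59.5% in a fit that has the animal as a block together with an offset for GC content and length, called the GC and length fit below. The number called ranged from 1572 in limma voom to 6366 without the filter. Scaling by totals also moved the median over all tested genes from -0.14 to -0.48 on the log2 scale, and values below are relative to the main scaling.

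**Figure D1:**
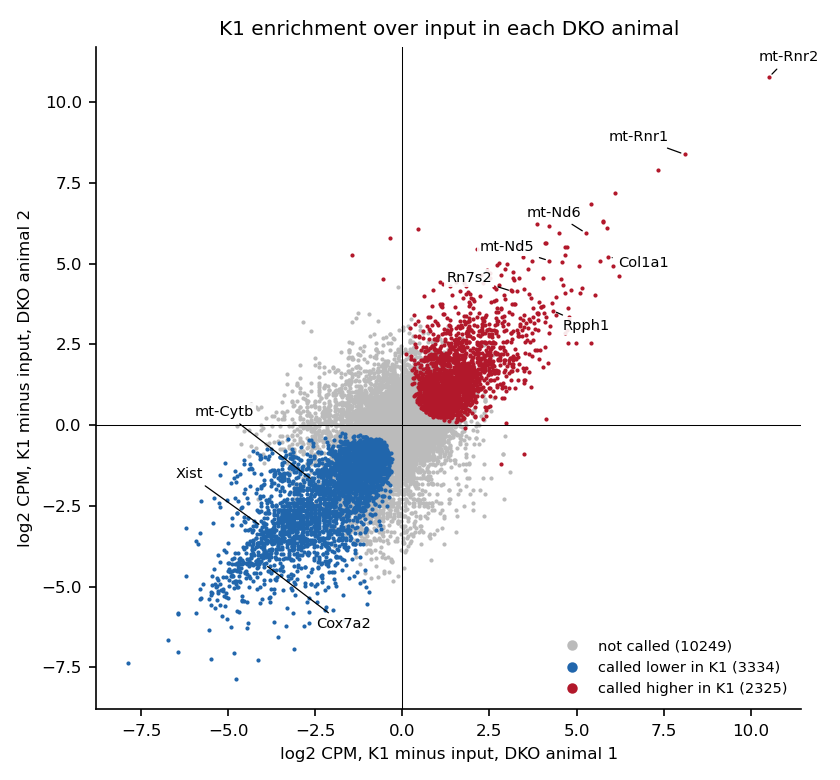
Each point is 1 of the 15908 tested genes, with log2 CPM in K1 minus input in DKO animal 1 on the horizontal axis and in DKO animal 2 on the vertical axis. Red marks the 2325 genes called higher, blue the 3334 called lower and grey the others. Mitochondrial rRNAs lie at the upper right. Of the called genes 5653 have the same sign in both animals, which a call with 2 animals a group nearly requires.

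Gene-assigned counts were 11247141 and 11224786 in the DKO inputs but 5559033 and 2220291 in the DKO K1 libraries. Reads aligned to several places, which were not assigned to genes, made up 25.9% and 46.7% of the listed reads in DKO K1 against 7.82% and 8.05% in DKO input and 6.02% and 6.56% in control K1. The inputs of the 2 DKO animals resembled each other more than their K1 libraries did (Pearson r of log2 CPM across genes 0.984 and 0.932). The 2 control K1 libraries had an r of 0.989. Pulldown RNA was extracted with another kit than the one named for the general protocol, so extraction and antibody cannot be told apart. CPM is the count scaled to the TMM-adjusted library total, log2 enrichment is the fitted log2 ratio of K1 to input with its standard error (SE), and n = 2 animals a group throughout.

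Kat2a and Kat2b, the targeted genes, were checked first. Kat2b stood at 10.6 and 9.23 CPM in the DKO inputs and 30.2 and 26.0 CPM in the control inputs. For Kat2a the values were 7.54 and 11.98 CPM in DKO input against 18.7 and 17.3 CPM in control input. Both genes were thus lower in each DKO input than in each control input, without reaching 0. In DKO K1, Kat2b had 35.0 and 29.3 CPM and a log2 enrichment of 1.71 ± 0.21 (SE, adjusted p = 0.00046). Kat2a had 9.90 and 10.4 CPM in K1 and a log2 enrichment of 0.05 ± 0.28 (adjusted p = 0.91). In control epithelium both were called higher in K1, Kat2b at 1.32 and Kat2a at 1.06 (edgeR, adjusted p = 0.00080 and 0.0058). The differences, DKO minus control, were 0.39 and -1.01 and were not called (edgeR, adjusted p = 0.45 and 0.13). Of 29 tested SAGA and ATAC genes, Kat2b among them, 5 were called higher and 3 lower, with a median of 0.05, beside 14.6% higher and 21.0% lower of all tested genes. In the GC and length fit 10 were higher and 3 lower.

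Of the small RNAs on which the results below turn, 4 are printed, Rpph1 by its first 300 bases and the others in full, because their own folds can be read from the letters. Capitals mark bases that RNAfold placed in pairs. Rpph1 is the catalytic RNA of RNase P, which trims the 5′ ends of tRNA precursors. Scarna13 guides modification of spliceosomal RNA in Cajal bodies, Snora23 is an H/ACA guide for pseudouridylation, and Snord17 is a C/D guide for methylation and the only one of the 4 that was lower in K1. The sequences are of GENCODE M21 transcripts on GRCm38.
Rpph1, chr14:50807468-50807767, minus strand: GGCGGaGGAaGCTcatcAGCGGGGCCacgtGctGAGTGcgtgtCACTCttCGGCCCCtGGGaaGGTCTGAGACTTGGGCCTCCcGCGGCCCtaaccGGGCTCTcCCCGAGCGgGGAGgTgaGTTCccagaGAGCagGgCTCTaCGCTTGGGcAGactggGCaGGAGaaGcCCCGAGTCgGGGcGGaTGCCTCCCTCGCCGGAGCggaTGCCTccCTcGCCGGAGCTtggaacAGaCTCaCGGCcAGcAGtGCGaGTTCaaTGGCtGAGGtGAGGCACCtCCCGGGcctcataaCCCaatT
Scarna13, chr12:105031075-105031349, minus strand: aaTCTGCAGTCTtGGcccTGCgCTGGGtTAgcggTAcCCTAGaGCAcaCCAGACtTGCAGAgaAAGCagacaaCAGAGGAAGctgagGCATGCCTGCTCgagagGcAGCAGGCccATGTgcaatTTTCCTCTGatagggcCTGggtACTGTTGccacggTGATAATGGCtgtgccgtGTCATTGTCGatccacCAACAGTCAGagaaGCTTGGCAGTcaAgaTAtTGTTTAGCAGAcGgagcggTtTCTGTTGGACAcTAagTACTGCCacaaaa
Snora23, chr7:110046364-110046547, plus strand: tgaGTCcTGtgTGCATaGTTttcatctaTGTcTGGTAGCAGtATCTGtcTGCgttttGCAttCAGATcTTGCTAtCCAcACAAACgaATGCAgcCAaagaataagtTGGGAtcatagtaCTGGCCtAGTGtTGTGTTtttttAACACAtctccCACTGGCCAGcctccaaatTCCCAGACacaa
Snord17, chr2:144265979-144266216, minus strand: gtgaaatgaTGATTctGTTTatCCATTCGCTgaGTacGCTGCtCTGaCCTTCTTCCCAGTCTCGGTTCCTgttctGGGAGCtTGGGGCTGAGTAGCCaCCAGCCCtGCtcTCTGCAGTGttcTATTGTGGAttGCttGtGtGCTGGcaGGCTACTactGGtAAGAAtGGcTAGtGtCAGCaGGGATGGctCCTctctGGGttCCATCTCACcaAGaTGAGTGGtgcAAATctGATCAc

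The most enriched mitochondrial mRNAs, mt-Nd5 and mt-Nd6, are encoded on opposite strands and meet tail to tail. The last 60 bases of each are printed, with the 14 bases that they share, each the reverse complement of the other, in capitals.
mt-Nd5, chrM:13506-13565, plus strand: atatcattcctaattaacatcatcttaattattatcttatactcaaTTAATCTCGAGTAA
mt-Nd6, chrM:13552-13611, minus strand: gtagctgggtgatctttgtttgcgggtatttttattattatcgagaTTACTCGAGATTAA

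Among the named genes the 2 mitochondrial rRNAs rose most. mt-Rnr2, the large mitochondrial rRNA (chrM:1094-2675), had 57 and 88 counts in the DKO inputs and 32413 and 27208 counts in DKO K1. This is 5.11 and 7.13 CPM against 7823 and 12854 CPM, a log2 enrichment of 10.72 ± 0.62 (adjusted p = 2.5e-05). mt-Rnr1, the small rRNA (chrM:70-1024), went from 2.33 and 3.48 CPM to 696 and 1226 CPM, a log2 enrichment of 8.36 ± 0.58. The library preparation depleted rRNA, so these are levels of what remained after depletion. Together the 2 rRNAs took 0.635% and 1.34% of DKO K1 counts but 0.000738% and 0.00117% of DKO input counts.

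All 13 mitochondrial mRNAs were tested, and 9 were called higher and 1 lower, beside 14.6% and 21.0% of all tested genes. Their median log2 enrichment was 1.87, with 1.33 in animal 1 and 2.28 in animal 2. As a group they made up 3.26% and 3.21% of DKO input counts and 8.12% and 17.3% of DKO K1 counts. mt-Nd6, a complex I subunit and the only mRNA of the light strand (chrM:13552-14070), rose from 417 and 394 CPM to 16045 and 24366 CPM (log2 enrichment 5.64 ± 0.47, adjusted p = 9.6e-05). mt-Nd5, which it meets at the 3′ end (chrM:11742-13565), rose from 3184 and 2867 CPM to 59310 and 97473 CPM (4.70 ± 0.58, adjusted p = 0.00044). The K1 values of both genes lay far above their inputs in each animal, and animal 2 was the higher of the 2.

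The other complex I mRNAs were enriched less. mt-Nd1 and mt-Nd2 had log2 enrichments of 2.47 ± 0.47 and 2.49 ± 0.43, and mt-Nd3 and mt-Nd4 had 1.87 ± 0.36 and 1.05 ± 0.35, all called higher. Without either control animal mt-Nd1 (2.44 and 2.45) and mt-Nd4 (1.02 and 1.03) were no longer called, nor were they in the fit of the 4 DKO libraries alone with the animal as a block (edgeR, adjusted p = 0.092 and 0.27). mt-Nd4l did not pass, with 20.5 and 17.0 CPM in input and 18.1 and 31.7 CPM in K1. Among subunits of the ATP synthase, mt-Atp8 reached 2.12 ± 0.29 and mt-Atp6 1.27 ± 0.24. Cytochrome oxidase was split: mt-Co3 rose by 2.27 ± 0.26, mt-Co2 missed the threshold at 0.61 ± 0.24 (adjusted p = 0.067), and mt-Co1 had a value of -0.87 ± 0.42 (adjusted p = 0.14). mt-Cytb, the complex III subunit next to mt-Nd6 (chrM:14145-15288), fell from 4067 and 3710 CPM to 692 and 1122 CPM (-2.10 ± 0.38, adjusted p = 0.0027). Enrichment was thus uneven along a genome whose strands are each transcribed as 1 precursor, with the highest mRNA values at the mt-Nd5 and mt-Nd6 junction and the lowest in the gene beyond it. In the GC and length fit the fall of mt-Cytb was not called (-0.31, edgeR, adjusted p = 0.40). There 11 of the 13 mRNAs were higher and none lower, with a median of 4.26.

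In the counting of the deposited tables, strand was ignored according to their labels, so sense and antisense reads of the mitochondrial genes cannot be told apart. At least 99.0% of the bases of mt-Co1, mt-Co2, mt-Co3, mt-Atp6, mt-Nd3 and mt-Nd4l, and 63.6% of those of mt-Nd4, also occur in an annotated nuclear copy at 97% identity or more over at least 100 bases. The counts of those genes are uncertain for that reason, while no such match was found for mt-Nd1, mt-Nd2, mt-Nd5, mt-Nd6, mt-Cytb or the rRNAs.

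**Figure D2:**
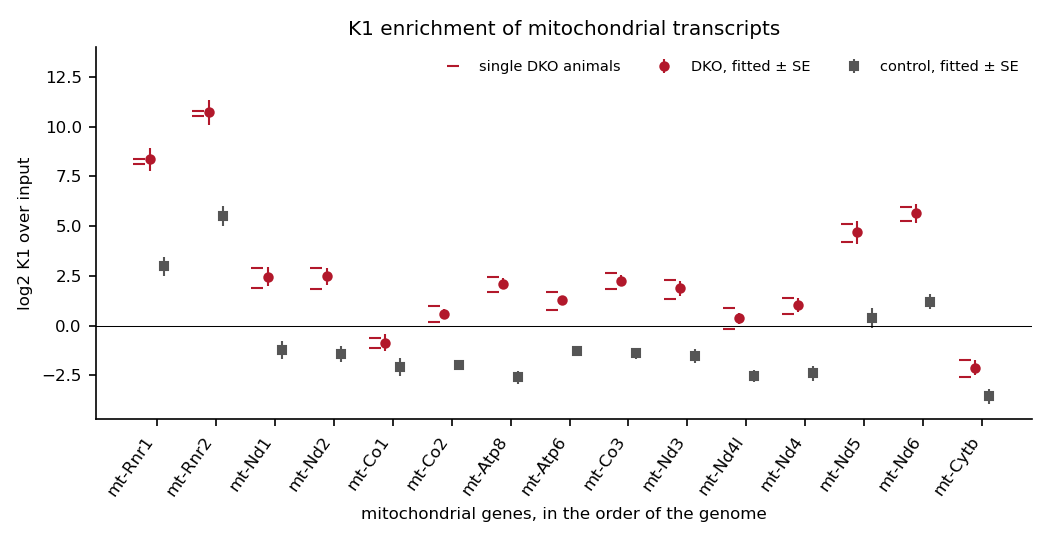
Fitted log2 K1 over input (vertical axis, bars are SE) for 15 mitochondrial genes in genome order, with DKO as red circles, control as grey squares and the 2 DKO animals as red ticks. The DKO values lie above the control values for each gene, with mt-Rnr2 highest at 10.72 and mt-Cytb lowest at -2.10 in DKO.

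In control epithelium the median of the 13 mitochondrial mRNAs was -1.53, and the difference in enrichment, DKO minus control, had a median of 3.44. It was called higher in DKO for 11 of the 13 and for both rRNAs, where over all tested genes 870 (5.47%) differed, 218 (1.37%) higher and 652 (4.10%) lower in DKO. For mt-Nd5 the control values were 4150 and 3780 CPM in input and 5135 and 5211 CPM in K1, and the difference in log2 enrichment was 4.31 (adjusted p = 0.018). The difference for mt-Nd6 was 4.43 (adjusted p = 0.0078) and for mt-Rnr2 5.21 (adjusted p = 0.0066). mt-Co1 and mt-Cytb did not reach the threshold, with differences of 1.22 and 1.45. These calls rest on both control animals: without control animal 1 no gene differed at the adjusted threshold (1270 at an unadjusted p under 0.05), and without control animal 2 only 3 did (1690 unadjusted). Without DKO animal 1 or 2, 3802 and 1656 genes differed, and 13 and 11 of the 13 mitochondrial mRNAs were called higher in DKO. limma voom called 413 and the fit with the animal as a block called 1912.

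The annotated class of small and structured RNAs took 7.53% and 7.77% of DKO K1 counts against 1.65% and 1.67% of input counts. Rpph1 alone took 6.69% and 4.72% of K1 counts against 0.447% and 0.466% of input counts. A list of RNAs made by RNA polymerase III and other small structured RNAs had 15 members. Of these 7 were tested, 6 were called higher and none lower, with a median log2 enrichment of 3.71. Of all tested genes 14.6% were higher and 21.0% lower. Rpph1, printed above, had 50313 and 52263 counts in input and 372113 and 104730 in K1, or 4514 and 4232 CPM against 89810 and 49478 CPM. Its log2 enrichment was 3.99 ± 0.59 (adjusted p = 0.0011), and both K1 values lay above both inputs. Rmrp, the RNA of the related RNase MRP that cuts rRNA precursors, had 3 counts in each input and 46 and 18 in K1, a 40.1-fold ratio with a 95% exact counting interval of 17.4 to 113. Rpph1 shares 233 of its 319 bases with an exon of Ccnb1ip1 on the same strand, and 124 of the 271 bases of Rmrp lie opposite an exon of Ccdc107, so the counts of both are uncertain. Terc, the template RNA of telomerase, rose from 6.82 and 6.80 CPM to 43.0 and 53.4 CPM (2.81 ± 0.41). The vault RNA Vaultrc5 also rose, by 4.10 ± 0.63, from 10 and 2 counts to 30 and 24.

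The 7SL genes were all called higher, within the limit that copies of 1 sequence share reads. 7SL is the RNA of the signal recognition particle, which brings secretory proteins to the endoplasmic reticulum. Rn7s2 rose from 52.8 and 47.7 CPM to 474 and 844 CPM (log2 enrichment 3.71 ± 0.38, adjusted p = 0.00018). Rn7s1 and Rn7s6 had 3.49 ± 0.32 and 3.93 ± 0.39. All 5 tested transcripts with at least 80% identity to 7SL over 100 bases were called higher. The 7SK RNA, which holds the elongation factor P-TEFb inactive, differed between animals: Rn7sk stood at 10498 CPM in input and 3464 CPM in K1 in animal 1, but at 9474 and 16910 CPM in animal 2. Its fitted value of 0.03 ± 0.62 was not called, although 6 of the 9 tested transcripts resembling 7SK were. Of the other 16 tested transcripts of the same annotated type, 3 were called higher and 7 lower, and all 7 had at most 3 counts in each K1 library. Over all tested genes the shares were 14.6% higher and 21.0% lower.

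Guide RNAs were measured in small numbers, and differences between their classes were not tested. Their calls stand beside 14.6% higher and 21.0% lower of all tested genes. Among Cajal body RNAs, 5 of 9 were tested and 4 were called higher: Scarna13 rose from 6.19 and 3.97 CPM to 41.5 and 129 CPM (4.05 ± 0.50, adjusted p = 0.00043), Scarna6 by 3.67 ± 0.53, Scarna17 by 4.33 ± 0.66 and Scarna2 by 1.36 ± 0.43. Scarna9 was called lower on 27 input counts and 1 K1 count, but not with the animal as a block (edgeR, adjusted p = 0.080). Scarna2 was not called without DKO animal 2 (0.26) or either control animal. Of 42 H/ACA RNAs in the tables only 7 passed the filter. Snora23, Snora57, Snora68 and Snora78 were called higher, with Snora23 rising from 55.3 and 46.9 CPM to 328 and 331 CPM (2.69 ± 0.39, adjusted p = 0.0010). Snora78 and Scarna9 lost their calls when any 1 of the 4 animals was left out, with values from 1.14 to 2.09 and from -6.61 to -2.33, and Snora78 also in the blocked fit of the DKO libraries alone (edgeR, adjusted p = 0.11). Only 2 of 99 C/D RNAs were tested, and Snord17 fell from 11.6 and 8.66 CPM to 1.45 and 0.945 CPM (-2.98 ± 0.42).

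Predicted folds were compared across 120 small noncoding RNAs that passed the filter. The 42 called higher had a median length of 215 bases, with 62.7% of bases paired and a folding energy of -0.36 kcal/mol per base. The 39 called lower had medians of 128 bases, 60.0% paired and -0.262 kcal/mol per base, and the 39 not called had 130 bases, 58.1% and -0.288 kcal/mol per base. GC content differed along with them, at 53.8%, 44.6% and 47.3%. These are descriptions of single-molecule folds, and the ranges of paired bases overlapped (49.6% to 73.2% in the higher set, 35.7% to 72.3% in the lower). Most of the lower set had at most 3 counts in each K1 library. This held for 18 of 19 small nuclear RNAs, 9 of 11 small nucleolar RNAs and all 7 of the annotated type that holds 7SL. The higher set counts copies of 7SL and 7SK as separate RNAs. A transcript such as Snord17, which was depleted, has long predicted stems in the printed sequence too.

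Several annotated noncoding types held more lower calls than the 21.0% over all tested genes. Of 106 sense intronic transcripts 70 were called lower and 3 higher, and of 532 antisense transcripts 254 were lower and 11 higher. TEC genes, loci whose transcription awaits experimental support, were lower in 407 of 643 cases. The shares were smaller for lincRNAs (31.3% lower), processed transcripts (30.5%) and bidirectional promoter lncRNAs (23.7%). K1 held at most 3 counts in each library for 64, 233 and 370 of those lower calls, so their size is set by the floor. Setting such genes to their bound moved the median log2 enrichment from -4.86 to -0.61 for sense intronic, from -3.05 to -0.34 for antisense and from -4.35 to -0.65 for TEC genes. Small nuclear RNAs (snRNA), a structured type, also went down, with 19 of 33 called lower and 4 higher. Of those lower calls 18 were at the floor, and the median moved from -6.03 to 0 at the bound. Processed pseudogenes, copies of mRNAs without introns, were the reverse, with 257 of 798 higher and 139 lower.

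**Figure D3:**
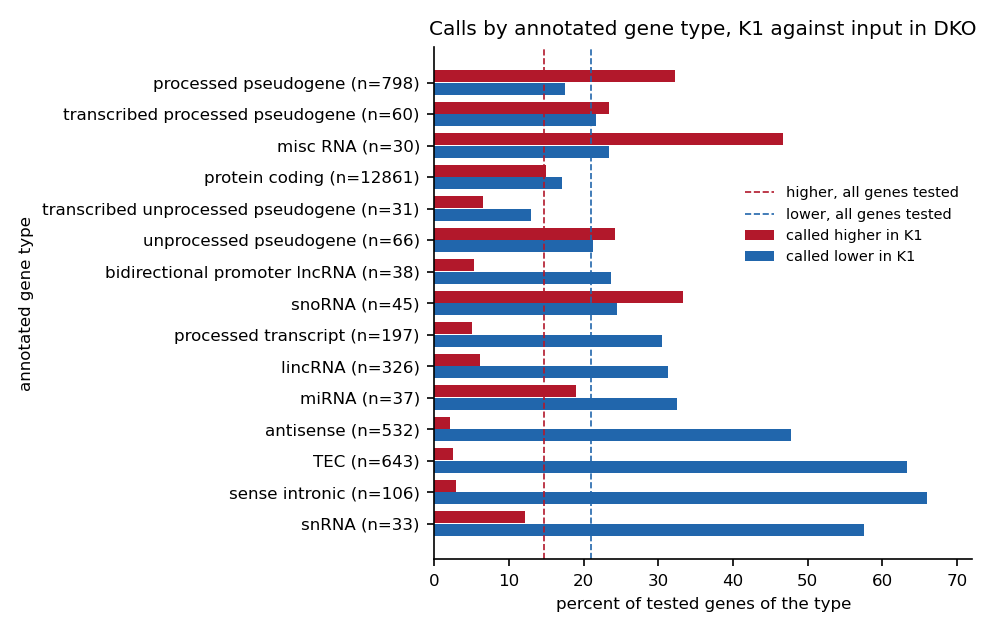
Percent of tested genes called higher (red) or lower (blue) in DKO K1, by annotated gene type with at least 30 tested genes, sorted by median log2 enrichment. Dashed lines mark 14.6% and 21.0% over all genes. Intronic, TEC, snRNA and antisense types lie farthest beyond the blue line, with 66.0%, 63.3%, 57.6% and 47.7% lower.

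Transcripts named for the opposite strand of a coding gene were lower in 36 (43.9%) and higher in 2 (2.44%) of 82 tested. Of all tested genes 21.0% were lower and 14.6% higher. The median of the list was -1.80, or -0.14 with genes at the floor set to their bound. Without DKO animal 1 the lower calls numbered 22 of 98 tested. Brip1os fell from 66.8 and 91.7 CPM to 50.0 and 44.9 CPM (-0.74 ± 0.22), a call lost without DKO animal 2 (-0.42) or either control animal (-0.76), and in the blocked fit of the DKO libraries alone (edgeR, adjusted p = 0.091). Mecomos had 411 counts over both inputs and 1 in K1, a 109-fold ratio with a 95% exact counting interval of 19.5 to 4334. Xist, the RNA that coats the inactive X chromosome, fell from 842 and 742 CPM to 51.6 and 83.6 CPM (-3.56 ± 0.34, adjusted p = 0.00015). Neat1, the scaffold of paraspeckles, fell by 2.41 ± 0.31 on the log2 scale. Malat1 of nuclear speckles had 6668 and 4968 CPM in input and 2072 and 5378 CPM in K1 and was not called (-0.64 ± 0.46). The groups overlapped for Malat1 and were apart for Xist and Neat1.

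Nuclear coding genes were also split by overlap with an exon on the opposite strand. Of the 3233 with at least 100 such bases, 16.1% were called higher and 16.1% lower. Of the 8830 without any, 14.2% were higher and 17.5% lower. The medians were -0.01 and -0.05.

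Among nuclear protein-coding genes as a whole, 1903 of 12841 were called higher and 2192 lower, with a median of -0.04. GC content moved with enrichment. When these genes were split by GC content into 5 equal bins, in the bin with the lowest GC content 3.31% were higher and 32.7% lower, with a median of -0.61. In the bin with the highest GC content 31.5% were higher and 7.09% lower, with a median of 0.52. Across the 12841 genes Pearson's r with GC content was 0.307 and Spearman's rho 0.370, and with log2 transcript length they were 0.164 and 0.136. Genes share the 4 libraries and are not replicates, so no p-value is attached. Shorter transcripts were called lower more often, at 25.3% in the shortest of 5 bins and 13.7% in the longest.

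Among nuclear coding genes with a mean of at least 200 counts over the 4 DKO libraries, the 12 most enriched had several functions. Lars2, the mitochondrial leucyl-tRNA synthetase, rose from 9.06 and 13.6 CPM to 89.8 and 243 CPM (3.86 ± 0.43, adjusted p = 0.00027). Rnf168, a ubiquitin ligase of the DNA damage response, rose from 12.7 and 11.98 CPM to 119 and 164 CPM (3.51 ± 0.23). Mcl1, an antiapoptotic BCL2 family member, rose from 100 and 98.1 CPM to 885 and 618 CPM (2.92 ± 0.27). Eif4e3, a cap-binding protein, rose by 3.26 ± 0.29, and Amn, the partner of cubilin in vitamin B12 uptake, by 2.71 ± 0.41. The F-box genes Fbxl19 and Fbxl18 rose by 2.69 ± 0.30 and 2.63 ± 0.23. Crebzf, Edf1, Ppp1r12c, Nop56 and Lzts3 lay between 2.40 and 2.63. In each of these 12 genes both K1 values were above both inputs, as the choice of genes requires. In control epithelium Rnf168, Fbxl19, Fbxl18 and Lzts3 had log2 enrichments of 2.72, 2.15, 2.35 and 2.47.

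**Figure D4:**
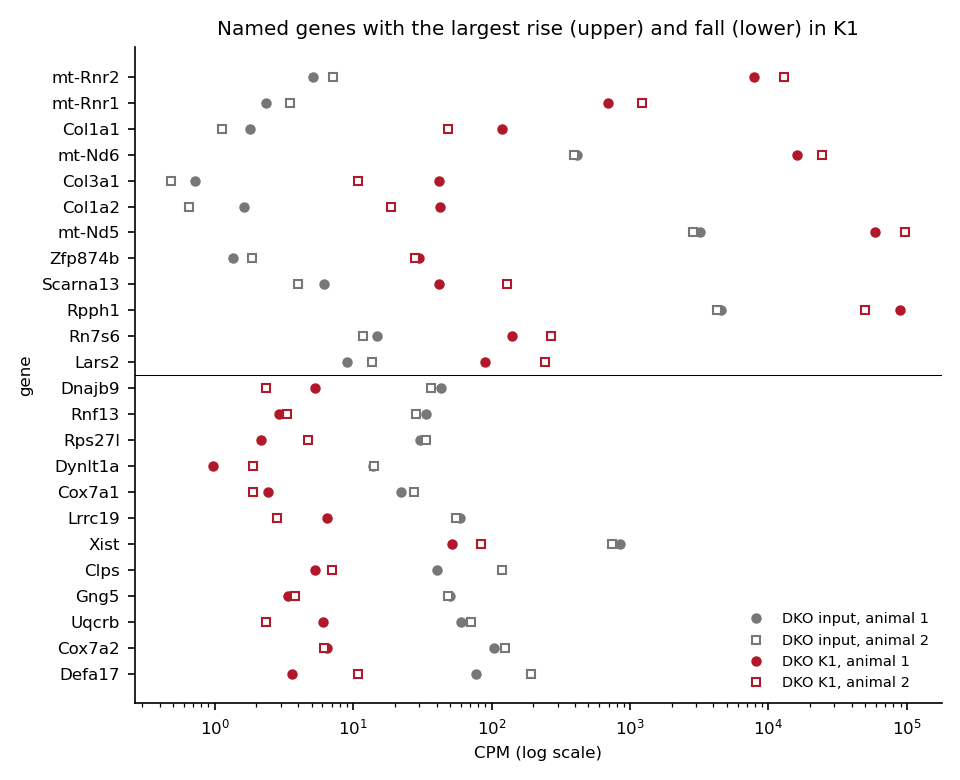
CPM on a log axis in each DKO library for the 12 genes with the largest rise (upper) and the 12 with the largest fall (lower) among genes with a mean of at least 50 counts, the falls being limited to genes with more than 3 counts in each K1 library. Grey is input and red is K1, with circles for animal 1 and squares for animal 2. In every row the K1 pair and the input pair are apart, as the choice of genes requires.

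Zinc finger genes, the largest family of mammalian transcription factors, had 36 of 289 tested Zfp genes called higher and 34 lower. These shares, 12.5% and 11.8%, lie below the 14.6% and 21.0% of all tested genes. The balance depended on the scaling, with 22 higher and 58 lower by totals alone and 52 higher and 5 lower in the GC and length fit. Zfp874b rose from 15 and 23 counts to 124 and 59 (4.16 ± 0.29) and Zfp626 by 2.60 ± 0.24. Zfp606 had 12 and 10 counts in input and none in K1, which is under what the floor of 3 counts per library resolves. Zfp106 rose by 1.00 ± 0.26, which was not called without DKO animal 1 (0.48) or either control animal. The median of the list was -0.07, beside -0.14 for all tested genes, and turned to 0.30 in the GC and length fit.

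mRNAs of respiratory chain subunits encoded in the nucleus were lower in 46 and higher in 4 of 77 tested, with a median of -1.10 and -0.96 and -1.41 in the 2 animals. These shares, 59.7% and 5.19%, stand beside 21.0% and 14.6% of all tested genes. Cox7a2, a cytochrome oxidase subunit, fell from 105 and 125 CPM to 6.52 and 6.14 CPM (-4.17 ± 0.26, adjusted p = 2.5e-05). Uqcrb of complex III fell by 3.83 ± 0.34 and Cox7a1 by 3.48 ± 0.33 on the log2 scale. Sdha, the flavoprotein of complex II, rose from 281 and 311 CPM to 1581 and 939 CPM (2.09 ± 0.32). The nuclear list and the mitochondrial list, which encode subunits of the same complexes, thus had medians on different sides of 0. In the GC and length fit the nuclear median was -0.33, with 30 lower and 10 higher.

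Cytosolic ribosomal protein mRNAs were lower in 32 (40%) and higher in 4 (5%) of 80 tested, with a median of -0.55. Of all tested genes 21.0% were lower and 14.6% higher. In the GC and length fit 15 were lower and 18 higher, with a median of -0.07, and without DKO animal 2 the higher calls numbered 11. Rpl39 had 374 counts over both inputs and 6 in K1, while Rpl19 rose by 2.09 ± 0.21 and Fau by 1.03 ± 0.25, the latter not called without either control animal (1.01 and 1.02). Rps27l, a p53-inducible ribosomal protein paralogue, fell by 3.34 ± 0.35. Rpl19 and Fau share 78.7% and 54.0% of their bases with pseudogenes, and their counts are uncertain. Mitochondrial ribosomal proteins showed 19 lower and 7 higher of 77, or 24.7% and 9.09% beside 21.0% and 14.6% of all tested genes. Their median of -0.42 became 0.09 in the GC and length fit, with 7 lower and 15 higher. Mrps26 and Mrpl40 rose by 1.71 ± 0.27 and 1.38 ± 0.25. Mrps30 had 101 input counts and 1 K1 count.

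Replication-dependent histone mRNAs, short and without a poly(A) tail, were lower in 23 (47.9%) and higher in 3 (6.25%) of 48 tested. Of all tested genes 21.0% were lower and 14.6% higher. The histone median was -1.39, or -1.06 with genes at the floor set to their bound. The 3 higher ones all encode linker histone H1: Hist1h1a rose by 1.51 ± 0.47, Hist1h1d by 1.73 ± 0.35 and Hist1h1e by 1.65 ± 0.25. Hist2h3c2 had the lowest value of the called members, on 43 input counts and 1 K1 count. The calls of Hist1h1a (1.52) and Hist2h3c2 (-3.43) were lost without either control animal.

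Genes induced by interferon, the response that double-stranded RNA sensing starts, were mixed. All 38 listed were tested, 3 (7.89%) were called higher and 4 (10.5%) lower, beside 14.6% and 21.0% of all tested genes, and the median was -0.09. In the GC and length fit 11 were higher and 3 lower, with a median of 0.16. Irf7, the transcription factor that amplifies interferon production, rose from 634 and 576 CPM to 1992 and 2001 CPM (1.72 ± 0.28, adjusted p = 0.0016). Tap1, the peptide transporter of antigen presentation, had 1.47 ± 0.52, and Bst2, or tetherin, had 1.11 ± 0.28. Among the lower were Eif2ak2 (-1.19 ± 0.24), Rtp4 (-0.94 ± 0.23) and Psmb8 (-0.84 ± 0.27). Without DKO animal 1 Rtp4 (-0.81), Bst2 (0.95) and Tap1 (0.55) were not called, and without DKO animal 2 Psmb8 (-0.64) was not. Tap1 and Psmb8 also missed the threshold without either control animal. Eif2ak2 encodes PKR, the kinase that double-stranded RNA activates.

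mRNAs of proteins that bind double-stranded RNA were also mixed, with 3 higher and 5 lower of 19 tested and a median of -0.04. These shares, 15.8% and 26.3%, lie near the 14.6% and 21.0% of all tested genes. Tlr3, the endosomal sensor, fell from 78.3 and 61.2 CPM to 19.1 and 13.7 CPM (-2.06 ± 0.27, adjusted p = 0.00062). Prkra, the activator of PKR, fell by 1.63 ± 0.31, Strbp by 1.05 ± 0.22 and Zfr by 1.00 ± 0.20. Among the higher, Ilf2 and Tarbp2 rose by 0.90 ± 0.26 and 0.63 ± 0.21, calls that were lost without either control animal, and Tarbp2 had 0.25 without DKO animal 1 and an adjusted p of 0.14 in the blocked edgeR fit of the DKO libraries alone.

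Stem cell and proliferation markers had medians above 0, at 0.51 and 0.67, and enterocyte markers a median below 0, at -0.92. Of all tested genes 14.6% were higher and 21.0% lower. The shares were 26.7% and 0% for stem cell, 31.25% and 0% for proliferation and 0% and 33.3% for enterocyte genes. Of 15 stem cell genes 4 rose and none fell: Lgr5, the marker of crypt base columnar cells, by 1.99 ± 0.42, Sox9 by 1.60 ± 0.45, and Axin2 and Lrig1 by 0.84 ± 0.22 and 0.84 ± 0.24. Of 16 proliferation genes 5 rose and none fell, among them Mki67 (1.02 ± 0.32) and Aurkb (1.57 ± 0.49). Enterocyte genes went the other way, with 5 of 15 lower and none higher. Fabp2, the intestinal fatty acid binding protein, fell from 781 and 721 CPM to 113 and 78.4 CPM (-2.96 ± 0.32). Apob of chylomicrons, the retinol carrier Rbp2, Fabp1 and lactase Lct had -1.64 ± 0.56, -1.56 ± 0.34, -1.43 ± 0.30 and -1.23 ± 0.40. The enterocyte median was -0.40 in animal 1 and -1.73 in animal 2, and without DKO animal 1 the lower calls numbered 12 of 15. With that animal left out, 2 stem cell genes were called higher and 1 lower. By totals alone 1 stem cell and 1 proliferation gene were called higher and 9 enterocyte genes lower. Axin2 (0.49) and Lrig1 (0.28) were not called without DKO animal 1, nor Mki67 (0.54), Aurkb (0.84) and Lct (-0.81) without DKO animal 2. Those 5, Apob and Rbp2 also lost their calls without either control animal, and Sox9 without control animal 1 (1.57). Apob had an adjusted p of 0.084 in the blocked edgeR fit of the DKO libraries alone. Fewer transcripts in the pulldown say nothing of the number of cells, since K1 and input come from the same animals.

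Paneth cell genes were lower in 4 and higher in 1 of 8 tested, with a median of -1.11, and lower in 3 and higher in 3 in the GC and length fit, with a median of -0.02. Defa17, an antimicrobial alpha-defensin, fell from 77.1 and 192 CPM to 3.62 and 10.9 CPM (-4.35 ± 0.54, adjusted p = 0.00046), and Defa24, Defa30 and the ribonuclease Ang4 had -2.53 ± 0.43, -2.70 ± 0.55 and -1.72 ± 0.42. Defensin genes share nearly all of their bases with other defensins, so their counts are uncertain. Itln1, a lectin, was the member that rose (1.32 ± 0.46, adjusted p = 0.048). Goblet cell genes were lower in 3 of 10, namely Spink4 (-2.36 ± 0.33), Ccl6 (-2.48 ± 0.45) and Agr2 (-1.10 ± 0.32). None was higher, and the 30% lower stands beside 21.0% of all tested genes. The goblet median was 0.39 in animal 1 and -1.08 in animal 2, and without DKO animal 1 the lower calls numbered 6 of 10, without DKO animal 2 they numbered 2 and 1 was higher. Of 12 enteroendocrine and tuft cell genes, Neurod1 rose by 1.27 ± 0.41, and Sct, Tph1 and Trpm5 had -1.25 ± 0.39, -0.98 ± 0.31 and -0.88 ± 0.28. These calls are 8.33% higher and 25.0% lower, near the 14.6% and 21.0% of all tested genes. Agr2 (-0.37) and Neurod1 (0.25) were not called without DKO animal 2, nor Tph1 (-0.55) without DKO animal 1. Itln1, Agr2, Neurod1, Sct, Tph1 and Trpm5 also missed the threshold without either control animal.

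Markers of cells outside the epithelium were measured alongside. Collagen mRNAs were among the largest rises: Col1a1 had 20 and 14 counts in input and 492 and 103 in K1 (5.86 ± 1.13, adjusted p = 0.0039), Col3a1 8 and 6 against 172 and 23 (5.49 ± 1.27), and Col1a2 18 and 8 against 175 and 40 (4.80 ± 0.99). K1 was above input in both animals for each, but without DKO animal 1 none of the 3 collagens passed the threshold, at log2 values of 5.33, 4.38 and 4.77. Of 14 stroma, endothelium and blood markers 6 were tested and only these 3 were called. That is 50% higher and 0% lower, beside 14.6% and 21.0% of all tested genes. The summed level of the list was 9.96 and 5.43 CPM in input and 209 and 85.04 CPM in K1, while Des, Hba-a1 and Hbb-bs had no K1 count and Acta2, Cdh5 and Kdr at most 1 in each K1 library. Of 14 tested leukocyte genes Itgax rose (1.65 ± 0.32), and Gzma and Cd3g fell (-2.04 ± 0.29 and -2.24 ± 0.57), Cd3g not being called without DKO animal 2 (-1.88) or in the blocked fit of the DKO libraries alone (edgeR, adjusted p = 0.074). The leukocyte calls were 7.14% higher and 14.3% lower, beside 14.6% and 21.0% of all tested genes. The leukocyte list summed to 117 and 94.7 CPM in input and 88.8 and 91.2 CPM in K1. What part carried-over cells have in the collagen values was not tested.

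**Figure D5:**
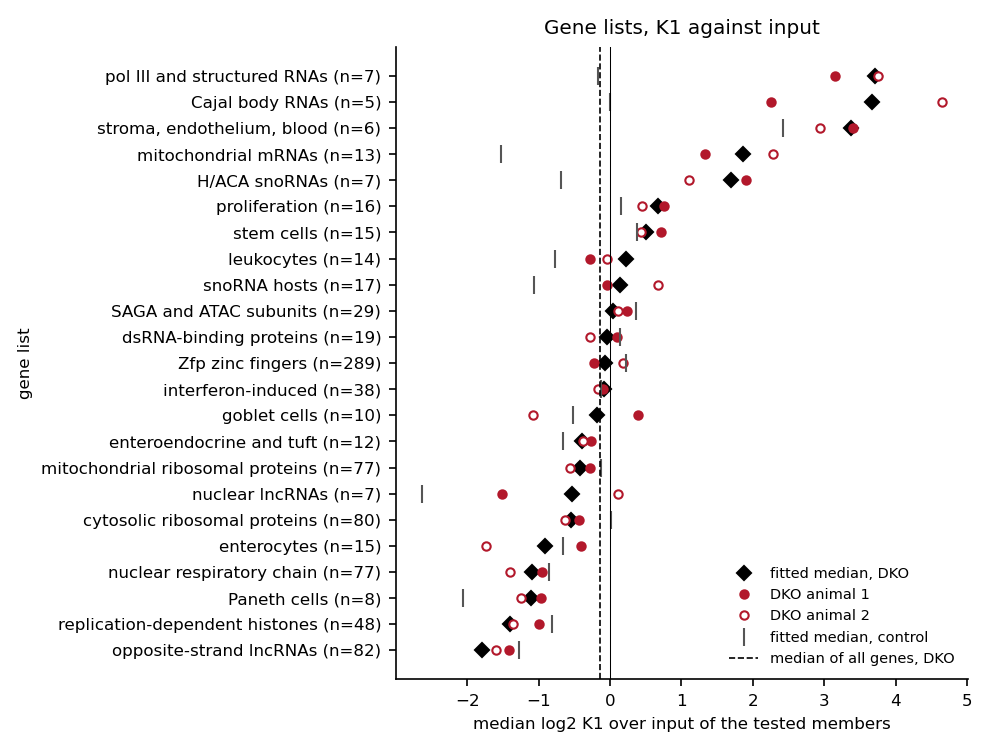
Median log2 K1 over input of the tested members of each list with at least 5 tested genes. Black diamonds are fitted medians in DKO, red circles the 2 DKO animals, grey bars the fitted control medians and the dashed line the median of all genes at -0.14. Structured RNAs, Cajal body RNAs, the stroma, endothelium and blood markers and mitochondrial mRNAs lie highest, at 3.71, 3.67, 3.38 and 1.87, and opposite-strand transcripts lowest, at -1.80.

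The largest falls outside these lists came from genes of several functions. Clps, pancreatic colipase, fell from 40.5 and 119 CPM to 5.31 and 7.09 CPM (-3.73 ± 0.53). Gng5, a G protein gamma subunit, fell from 50.2 and 48.1 CPM to 3.38 and 3.78 CPM (-3.80 ± 0.28). Lrrc19 fell by 3.49 ± 0.32, Dynlt1a by 3.41 ± 0.38, Rnf13 by 3.33 ± 0.27 and Dnajb9, an endoplasmic reticulum chaperone partner, by 3.26 ± 0.32 on the log2 scale. Sprr2a1 had 86 and 117 counts in input and none in either K1 library, at least 8.03-fold lower when K1 is set to the floor of 3 counts per library. Prss48 had 378 input counts and 2 K1 counts, a 50.3-fold ratio (95% exact counting interval 13.8 to 417). For Lrrtm2 the counts were 487 and 3, a 43.2-fold ratio (14.7 to 210). Clec2j had 207 and 1, a 55.1-fold ratio (9.79 to 2188), and was not called without DKO animal 1. Intervals cover counting error only. Dynlt1a and Sprr2a1 share 100% and 96.0% of their bases with near-identical genes, and their counts are uncertain.

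Of all K1 counts in DKO, the largest shares, which are not corrected for length, went to Gm26917 (6.74% and 8.82%), mt-Nd5 (4.42% and 9.29%) and Rpph1 (6.69% and 4.72%). The lincRNA Gm26917 already held 8.26% and 7.85% of input counts and was not enriched (0.24 ± 0.56, adjusted p = 0.76). Actb, the cytoplasmic actin, had 0.32 ± 0.50. High abundance in the pulldown and enrichment over input were thus different rankings.

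Genes that host guide RNAs in their introns were tested in 17 cases, with 4 higher and 3 lower. These shares, 23.5% and 17.6%, stand beside 14.6% and 21.0% of all tested genes. In the GC and length fit 8 were higher and none lower, by totals alone 2 were higher and 3 lower, and with DKO animal 2 left out 1 was higher and 3 lower. Nop56, a core protein of the C/D guide complex and itself a host, rose by 2.46 ± 0.43, Snhg12 by 2.01 ± 0.49, Snhg5 by 1.74 ± 0.55 and Epb41l4aos by 2.12 ± 0.61. Without DKO animal 2 the last 3 were not called, at 1.52, 1.31 and 1.55. Snhg6 had 20 and 26 counts in input and none in K1, at least 1.82-fold lower against the same floor.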

How the data were processed

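RNA was measured in 12 libraries, of which the 8 input and K1 libraries of 2 control and 2 DKO animals were used and the 4 J2 libraries were not analysed here. The deposited files hold whole-number read counts per gene, counted without regard to strand per the labels. The submitters' processing notes name FastQC, STAR 2.7.10b, SAMtools 1.17, UMI-tools 1.1.4, HTSeq 2.0.2, DESeq2 1.40.1, edgeR 3.42.2 and deepTools 3.5.2 and the builds mm10 and GRCm38, without roles, so how molecular identifiers were used is not given. Libraries were made from random-hexamer-primed, rRNA-depleted, strand-specific RNA, per the labels' protocols. Rows that name no gene were left out of totals and tests: no-feature rows held 6.76% and 8.83% of listed reads in DKO K1 and 26.1% and 25.0% in DKO input.

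Counts of 8 libraries were fitted in edgeR 4.0.16 (R 4.3.3) with TMM scaling, a filter at 10 counts, 4 group means and 4 residual degrees of freedom. The contrasts were K1 against input in DKO and the same difference in DKO minus control, with Benjamini-Hochberg adjustment over 15908 genes at 0.05. The spread is thus partly that of control animals. K1 and input of 1 number carry the same animal code, so they are paired. Their deviations from the group means correlated at 0.224 in DKO and 0.314 in control, and the paired fit called 6337 genes. DESeq2 1.42.0 and limma 3.58.1 served as alternatives. SE is the log2 value divided by the root of the F statistic, and log2 CPM per animal used a prior count of 2. Types and coordinates came from GENCODE M21, which matched 48144 of 48526 gene IDs. RNAfold 2.7.2 folded transcripts, and blastn 2.17.0+ found near-identical ones. The fit was checked on simulated counts.

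The members and lists were chosen with earlier results of these data known. The named genes are the targeted genes, the largest rises and falls among genes with a mean of at least 50 counts, adjusted p under the threshold and groups that do not overlap, the largest shares of K1 counts, the most enriched coding genes and members of the lists. Of the list members that this rule names, the text gives those called and some others, and leaves many values near 0 to the counts. That selection, the printed sequences, the folding, the 7SL and 7SK grouping, and Bst2, Tap1, Rtp4, Psmb8, Prkra, Strbp, Zfr, Ilf2 and Tarbp2 were chosen after values were seen. Some results are not reported here. Nothing says that the animals share a litter, and with 2 animals a group the error is poorly known.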

Additional observations from a re-analysis of the deposited data

Results flagged for a closer look

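Of 129 named genes, 42 differed in K1 enrichment between DKO and control in the test of the difference itself (edgeR, adjusted p under 0.05). Many of the 129 were named for their enrichment in DKO, which is part of that difference. Their share therefore cannot be compared with the 5.47% of all tested genes that differed. Nearly all of these calls were lost when either control animal was left out, so the calls rest on both. The fitted differences kept their sign under every alternative. Without control animal 1 or 2 they were 5.51 and 4.71 for mt-Rnr2 and 4.19 and 4.36 for mt-Nd5. Values in parentheses are log2 enrichment in DKO minus that in control. The mitochondrial genes were all higher in DKO: mt-Rnr1 (5.38), mt-Rnr2 (5.21), mt-Nd1 (3.69), mt-Nd2 (3.90), mt-Co2 (2.59), mt-Atp8 (4.71), mt-Atp6 (2.53), mt-Co3 (3.66), mt-Nd3 (3.40), mt-Nd4 (3.44), mt-Nd5 (4.31), mt-Nd6 (4.43) and mt-Nd4l (2.89). Small structured RNAs were likewise higher: Rn7s1 (3.65), Rn7s2 (4.10), Rn7s6 (4.18), Vaultrc5 (5.74), Scarna13 (2.83), Scarna6 (4.25), Snora23 (2.54) and Snora57 (6.41). The long noncoding RNAs with a difference were Gm26917 (3.47), Malat1 (2.66), Snhg5 (3.19) and Snhg12 (3.30), also higher in DKO. Coding genes that were higher in DKO were Edf1 (2.36), Lgr5 (2.20), Amn (2.36), Nop56 (2.39), Itgax (2.43), Lars2 (3.38), Mcl1 (1.43), Crebzf (1.93) and Eif4e3 (2.19). Coding genes that were lower in DKO were Dnajb9 (-1.73), Mrps30 (-3.99), Strbp (-2.22), Tlr3 (-1.42), Rnf13 (-1.56), Lrrc19 (-2.23), Sprr2a1 (-9.18) and Dynlt1a (-2.76), of which Sprr2a1 and Mrps30 had at most 1 count in each DKO K1 library, so their fitted values depend on the prior count.

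Reads that aligned to several places lie outside the gene counts, and their share was above that of control K1 (6.02% and 6.56%) in both DKO K1 libraries, at 25.9% in animal 1 and 46.7% in animal 2. The genes or repeats they came from were not analysed here.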

How the results depend on the processing

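The 5659 calls became 4190 with the replicate block on DKO libraries alone (1709 higher, 2481 lower), 2916 with DKO libraries alone and no block (1127 higher, 1789 lower) and 1572 in limma voom (899 and 673). Scaling by totals alone left 1391 higher. The replicate block with thinning, which tested 11324 genes, left 2185 lower. The replicate block with the GC and length offset, called the offset below, left 1988 lower, with the sign turned for 179 genes called before. With the replicate block 6337 genes were called, 5434 of them shared, and none changed sign. Leaving out 1 animal gave 3005 to 5970 calls, 1098 to 2812 of them higher and 1907 to 3158 lower. The 870 differences between DKO and control became 1912 with the replicate block, 413 in limma voom, 523 with RLE factors, 1763 without the filter and 0 to 3802 when 1 animal was left out. Their share higher in DKO was 25.1%, against 38.7% in DESeq2, 39.2% with RLE factors, 13.2% with totals alone, 46.2% with the offset and 37.5% without the filter. The causes were not tested.

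Of 121 called named genes, 67 were called under every alternative run. Calls were lost for 41 of them in limma voom, 32 with DKO libraries alone and no block, 16 with totals alone, 14 with the offset, 1 with the replicate block (Scarna9), 7 with the replicate block on DKO libraries alone (mt-Nd1, mt-Nd4, Apob, Cd3g, Snora78, Brip1os and Tarbp2), and 15, 15, 30 and 29 without DKO replicate 1, DKO replicate 2, control replicate 1 and control replicate 2. A group left with 1 library is assumed there to vary like the others. Signs turned for Agr2 (0.0060) and Fabp1 (0.0025) with the offset, and, among genes not called, for Kat2a with totals alone (-0.30), the offset (-0.34) and leaving out 1 animal (-0.28 to 0.39), Gm26917 with totals alone (-0.051) and the offset (-1.14), Actb with totals alone (-0.053) and leaving out 1 animal (-0.43 to 0.69), mt-Co1 with the offset (0.77), mt-Nd4l leaving out 1 animal (-0.19 to 0.82), and Malat1 leaving out 1 animal (-1.69 to 0.038). Rn7sk turned to -0.38 with the replicate block, -0.36 with the replicate block on DKO libraries only, -0.24 in limma voom, -0.16 with totals alone, -0.32 with the replicate block and thinning, -1.603 to 0.76 leaving out 1 animal. Depth limits the 1258 lower calls in which K1 held at most 3 counts per library.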
